A study of Mus musculus with 4 samples.

Results

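Potassium channels are membrane proteins that let K+ leave or enter a cell, and so set the resting potential, end action potentials and pace repeated firing in neurons. Pore-forming subunits assemble as tetramers (as dimers in the 2-pore family), and accessory subunits change where the channels are placed and how fast they open. In cortex, voltage-gated (Kv), calcium- and sodium-activated (KCa and KNa), inwardly rectifying (Kir) and 2-pore leak (K2P) channels are known mainly from neurons, and a smaller number are known from glia, vessels and immune cells. Described here are the potassium channel genes of the mouse brain after angiotensin II infusion and stroke. The members are the protein-coding genes whose symbol begins with *Kcn*, followed by a family letter or letters and a number, without *Kcnj8* and *Kcnj10*. The rule found 90 members among 33981 genes, 19213 of them protein coding, and used no measured value. By family there were 11 Kv1 and Kv beta genes, 12 Kv2 and electrically silent Kv genes, 4 Kv3, 7 Kv4 and KChIP, 9 Kv7 and KCNE, 8 EAG, 12 KCa, KNa and BK beta, 13 Kir and 14 K2P genes.

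Male C57BL/6J mice aged 3 to 5 months were infused with angiotensin II (dose 0.28 mg/kg/day; hypertensive, HT) or with its saline vehicle (normotensive, NT) for 28 days. Sham surgery or photothrombotic stroke, in which light on an injected dye closes cortical vessels, was done at day 7. Poly(A) RNA of a coronal section that included the prefrontal cortex was sequenced in 24 libraries, 6 in each group, named HT + Stroke, HT + Sham, NT + Stroke and NT + Sham. All groups were infused and had surgery, and all were of 1 strain. The section was bulk tissue, so fewer cells of a type and less RNA per cell cannot be told apart.

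Total counts were 15922919 to 24865998 per library (median 18497215.5), and the members held 0.482 to 0.550% of them. Genes that mark neurons were present in every library, with a summed level of 5579 to 7433 library-scaled counts (CPM) for 8 pan-neuronal genes. Striatal genes summed to 347 to 2726 CPM and olfactory bulb genes to 23.5 to 352 CPM, and how much of these regions each section held was not measured. Library 6 of HT + Sham stood apart from the rest of its group, with the highest microglial score (5.16 against 4.51 to 4.79, as a mean of log2(CPM + 1) over 8 genes) and the highest meningeal fibroblast score (4.87 against 3.32 to 3.97). Libraries 1 and 6 of HT + Stroke had microglial scores of 4.97 and 4.91, below the range of NT + Stroke (5.35 to 6.17). Libraries 1 and 6 of HT + Stroke were left out one at a time and not together.

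To show where the genes that moved most begin, the 250 bases before the RefSeq start of 4 members are printed on GRCm38.p6, 5′ to 3′ on the strand of the gene. *Kcnn4* and *Kcnk5* are the members whose levels were higher in all NT + Stroke libraries than in all NT + Sham libraries, and *Kcnt2* and *Kcnmb4* are those with the lowest log2 fold changes. Capitals mark the letters GGGCGG, the core of a GC box, or CCGCCC, the same core on the other strand.
Kcnn4, chr7:24370013-24370262, plus strand: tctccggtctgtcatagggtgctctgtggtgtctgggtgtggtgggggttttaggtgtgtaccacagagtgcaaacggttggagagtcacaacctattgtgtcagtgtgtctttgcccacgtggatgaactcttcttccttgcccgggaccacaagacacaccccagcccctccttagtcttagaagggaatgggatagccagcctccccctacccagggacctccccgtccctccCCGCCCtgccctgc
Kcnk5, chr14:20181783-20182032, minus strand: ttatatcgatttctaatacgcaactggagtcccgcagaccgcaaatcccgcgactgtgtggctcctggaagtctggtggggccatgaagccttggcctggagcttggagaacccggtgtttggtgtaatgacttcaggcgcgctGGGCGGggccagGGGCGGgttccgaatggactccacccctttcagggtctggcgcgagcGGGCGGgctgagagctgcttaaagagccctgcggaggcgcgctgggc
Kcnt2, chr1:140245468-140245717, plus strand: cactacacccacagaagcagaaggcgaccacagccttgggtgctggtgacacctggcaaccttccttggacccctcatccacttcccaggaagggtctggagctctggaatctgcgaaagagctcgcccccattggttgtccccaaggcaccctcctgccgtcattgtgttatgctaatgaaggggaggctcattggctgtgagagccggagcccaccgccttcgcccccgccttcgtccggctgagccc
Kcnmb4, chr10:116473524-116473773, minus strand: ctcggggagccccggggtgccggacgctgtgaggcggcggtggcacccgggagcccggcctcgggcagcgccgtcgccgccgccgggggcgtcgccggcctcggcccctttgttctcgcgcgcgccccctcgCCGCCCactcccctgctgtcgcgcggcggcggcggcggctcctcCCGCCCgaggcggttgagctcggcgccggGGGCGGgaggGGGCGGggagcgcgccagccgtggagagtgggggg

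The windows differ in base composition. *Kcnmb4* held 83.6% G and C and 43 CpG dinucleotides, *Kcnk5* 62.8% and 19, *Kcnt2* 61.6% and 10, and *Kcnn4* 58.8% and 6. Of the 90 members, 65 had 1 or more entries in the RefSeq table, 90 windows in all, with a median of 58.6% G and C where all 32851 windows had 52.4%. The GC box letters occurred on either strand in 44.4% of member windows and in 32.7% of all windows. The letters GAGGAA, the core bound by PU.1 and some other ETS factors, occurred in 25.6% and 23.3%, TGACGT, the core of the cyclic AMP response element, in 4.44% and 6.47%, and TATAAA in 3.33% and 12.4%. The PU.1, cyclic AMP and TATA letters were not in the 4 windows shown. Matches of this kind are a description of the letters and not of factor binding.

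Transcript level was compared between members per length, as FPKM in NT + Sham. Of the 90 members, 27 had a mean of at least 10 FPKM, 33 had 1 to 10 and 30 had less than 1. *Kcnab2*, the Kv beta 2 subunit of axonal Kv1 channels, and *Kcnj4*, an inward rectifier that holds the resting potential of forebrain neurons, were highest at 130.0 ± 9.68 and 129.8 ± 9.66 FPKM (mean ± SD, n = 6), and differed by less than their spread. The next pair, *Kcnh3* of the ether-à-go-go (EAG) family at 59.4 ± 4.97 FPKM and the calcium-binding Kv4 partner *Kcnip3* at 58.0 ± 2.39 FPKM, also overlapped. *Kcnip2*, another such partner, followed at 48.5 ± 6.51 FPKM. *Kcnj9*, a G protein-gated Kir subunit, stood at 42.7 ± 3.00 FPKM and the leak channel *Kcnk1* at 40.4 ± 1.16 FPKM, which again lie within 1 SD of each other. At the other end, 13 members had too few counts to be tested in any comparison, namely *Kcnk7*, *Kcnk16*, *Kcnk18*, *Kcnmb3*, *Kcnj1*, *Kcnj5*, *Kcna7*, *Kcna10*, *Kcng3*, *Kcnv2*, *Kcne1*, *Kcne2* and *Kcne3*.

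**Figure D1:**
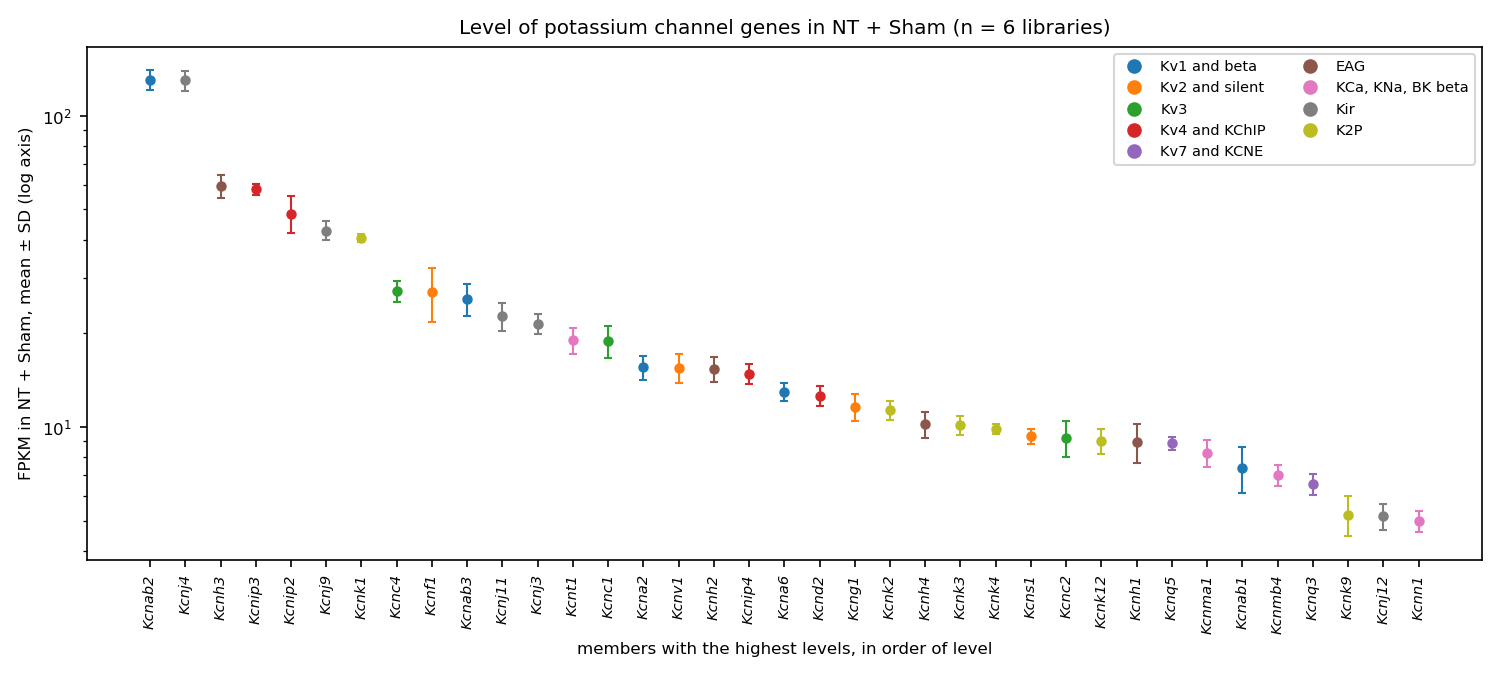
Mean ± SD of FPKM in the 6 NT + Sham libraries on a log axis, for 37 of the members with the highest levels, in order of level and coloured by family. *Kcnab2* and *Kcnj4* stand together at about 130.0 FPKM, above *Kcnh3* at 59.4 FPKM.

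NT + Stroke vs NT + Sham asks what stroke alone did to these transcripts. More members had lower than higher levels in NT + Stroke, and the lower members were spread over most families. Of 75 members tested, 30 were lower (40%, where 11.5% of all 16835 genes tested were lower) and 7 were higher (9.33%, where 14.4% of all genes were higher), at an adjusted *P* under 0.05 in edgeR's quasi-likelihood test. At an unadjusted *P* under 0.05 there were 32 lower and 11 higher members, where 17.1% and 18.9% of all genes were. The median log2 fold change was −0.14 over the members and −0.01 over all genes. The 6 NT + Stroke libraries lay below all 6 NT + Sham libraries for 19 members, as they did for 6.83% of all genes, and above them for 2 members, as they did for 7.47% of all genes. Below, levels are CPM given as lowest, median and highest of 6 libraries, a change is a log2 fold change with its standard error (SE), and adjusted *P* is that of edgeR after Benjamini-Hochberg correction across every gene in the fit.

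Markers of cell types moved in the same comparison. The pan-neuronal score was 9.50 ± 0.0400 in NT + Sham and 9.21 ± 0.0568 in NT + Stroke, with 4 of 8 genes lower (exact two-sided permutation *P* = 0.00216, the smallest that 6 against 6 libraries allow, adjusted over 75 tests, 0.0162). All 6 genes of excitatory cortical neurons were lower and their score went from 8.04 ± 0.0565 to 7.5 ± 0.0967, whereas that of GABA interneurons was 7.10 ± 0.135 and 7.08 ± 0.0730, with 2 of 6 genes higher and 2 lower. All 8 microglial genes were higher, with summed levels of 246 to 280 CPM in NT + Sham and 452 to 858 CPM in NT + Stroke. All 6 meningeal fibroblast genes were higher as well, from summed levels of 61.3 to 78.2 CPM to levels of 220 to 682 CPM. For astrocytes 5 of 6 genes were higher (575 to 669 CPM and 1153 to 1584 CPM summed). The T cell score, which rested on 1 of 5 genes, was higher by 0.51 (adjusted permutation *P* = 0.0162). Scores of pericytes and smooth muscle and of endothelial cells were higher by 0.27 and 0.21 (adjusted permutation *P* = 0.0250 and 0.0406). The choroid plexus score was 1.38 ± 0.377 in NT + Sham and 1.63 ± 0.209 in NT + Stroke (exact two-sided permutation *P* = 0.188). The part that cell composition plays in the channel results was not tested.

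Marker scores of neighbouring regions also varied between libraries. Striatal and olfactory bulb scores were higher in NT + Stroke than in NT + Sham by 0.70 and 0.88. Neither passed after adjustment (exact two-sided permutation *P* = 0.199 and 0.0346, adjusted over 75 tests 0.324 and 0.106). With both scores as covariates 0 members were higher and 3 were lower, while over all genes 710 were higher and 75 lower (4.66%). The 3 members were *Kcnmb4* (−0.56, SE 0.138, adjusted *P* = 0.0170), *Kcnj3* (−0.36, SE 0.0918, adjusted *P* = 0.0222) and *Kcnt2* (−0.64, SE 0.174, adjusted *P* = 0.0364). Among the 30 lower members the median went from −0.37 to −0.23 with the covariates and the median SE from 0.0792 to 0.117, and 30 of 30 had a negative value in both fits.

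**Figure D2:**
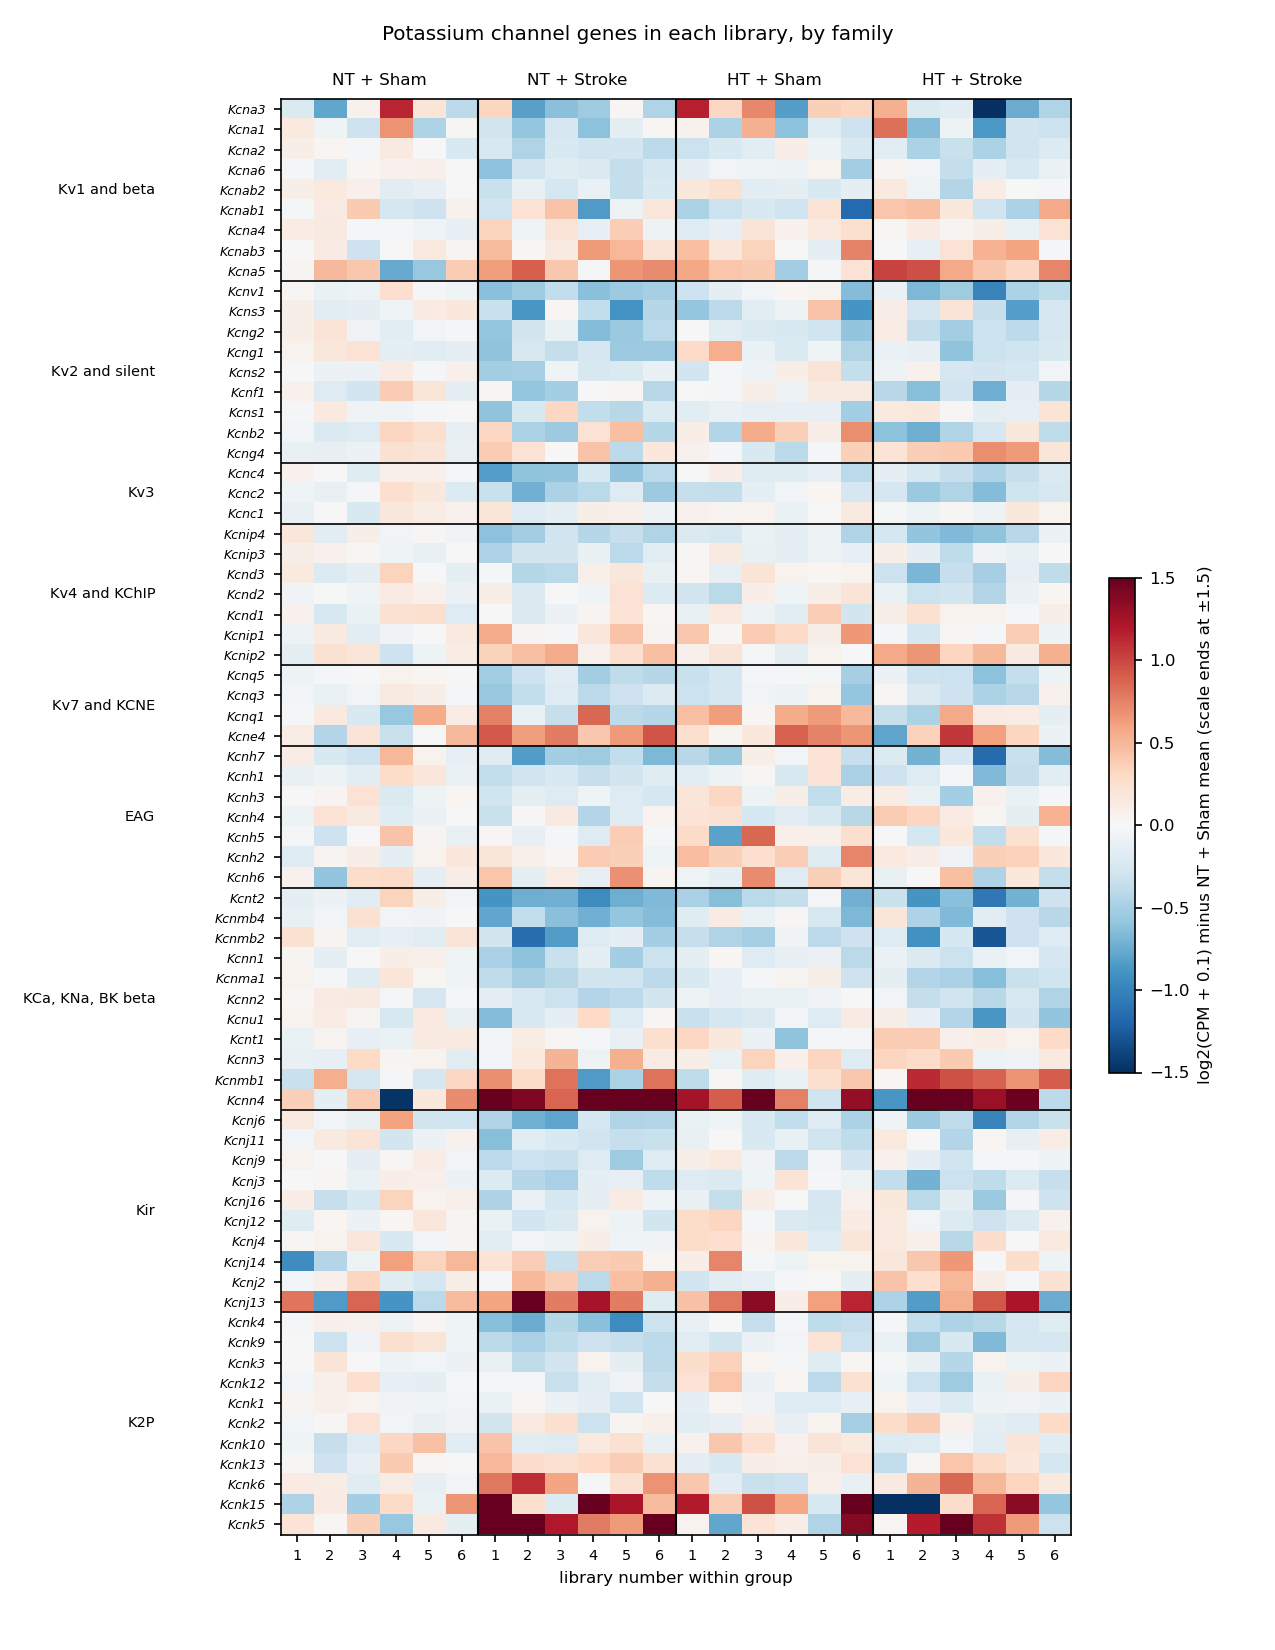
Level of 71 members tested in NT + Stroke vs NT + Sham (rows, by family and in order of change) in each of the 24 libraries (columns), as log2(CPM + 0.1) minus the NT + Sham mean, with blue below and red above that mean. More rows are blue than red in the NT + Stroke libraries, but many rows hold both colours there. Of the 75 members tested, 49 had a negative and 26 a positive change. *Kcnn4*, *Kcnk15* and *Kcnk5* are the reddest rows.

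Calcium- and sodium-activated channels, which open as the cell's calcium or sodium rises and slow repeated firing, held the lowest and the highest values. Of 11 tested, 5 were lower and 1 was higher, where 11.5% and 14.4% of all genes were. *Kcnt2* (ENSMUSG00000052726, chromosome 1, 140246158 to 140612067), the sodium-activated channel Slick, was 16, 17 and 22.4 CPM in NT + Sham and 9.21, 10.7 and 11.2 CPM in NT + Stroke. The groups did not overlap, and the change was −0.77 (SE 0.0987, adjusted *P* = 1.56e-05). *Kcnmb4* (ENSMUSG00000054934, chromosome 10, 116417861 to 116473878), the beta 4 subunit of neuronal BK channels, was 21.9, 23.0 and 27.7 CPM in NT + Sham and 13.7, 15.1 and 18.3 CPM in NT + Stroke. It too had no overlap (−0.60, SE 0.0802, adjusted *P* = 2.38e-05). An antisense gene, *Kcnmb4os2*, overlaps its exons and had a mean of 5.70 CPM, and whether counting used strand is not given in the sources used here.

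*Kcnma1*, the pore of the BK channel itself, was 125, 142 and 160 CPM in NT + Sham and 99.8, 109 and 117 CPM in NT + Stroke, again without overlap (−0.36, SE 0.0669, adjusted *P* = 0.000590). The small-conductance channels *Kcnn1* (−0.38, SE 0.0841, adjusted *P* = 0.00266) and *Kcnn2* (−0.28, SE 0.0734, adjusted *P* = 0.00768) were lower, with groups that overlapped. *Kcnn3* of the same subfamily was 10.6 CPM in median in NT + Sham and 11.9 CPM in NT + Stroke and did not pass the test (0.23, SE 0.119). *Kcnt1*, the Slack channel that pairs with *Kcnt2*, had medians of 179 and 181 CPM and no call (0.05, SE 0.0704).

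*Kcnn4* (ENSMUSG00000054342, chromosome 7, 24370263 to 24386690) encodes the intermediate-conductance channel KCa3.1, which is known from microglia, lymphocytes and red cells more than from neurons. Its levels were 0.158, 0.758 and 1.07 CPM in NT + Sham (3 to 20 counts) and 1.21, 2.26 and 4.24 CPM in NT + Stroke (22 to 81 counts). Every NT + Stroke library was above every NT + Sham library, and the change was 1.84 (SE 0.335, adjusted *P* = 0.000502). With the regional covariates it was 0.64 (SE 0.466), which did not pass.

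**Figure D3:**
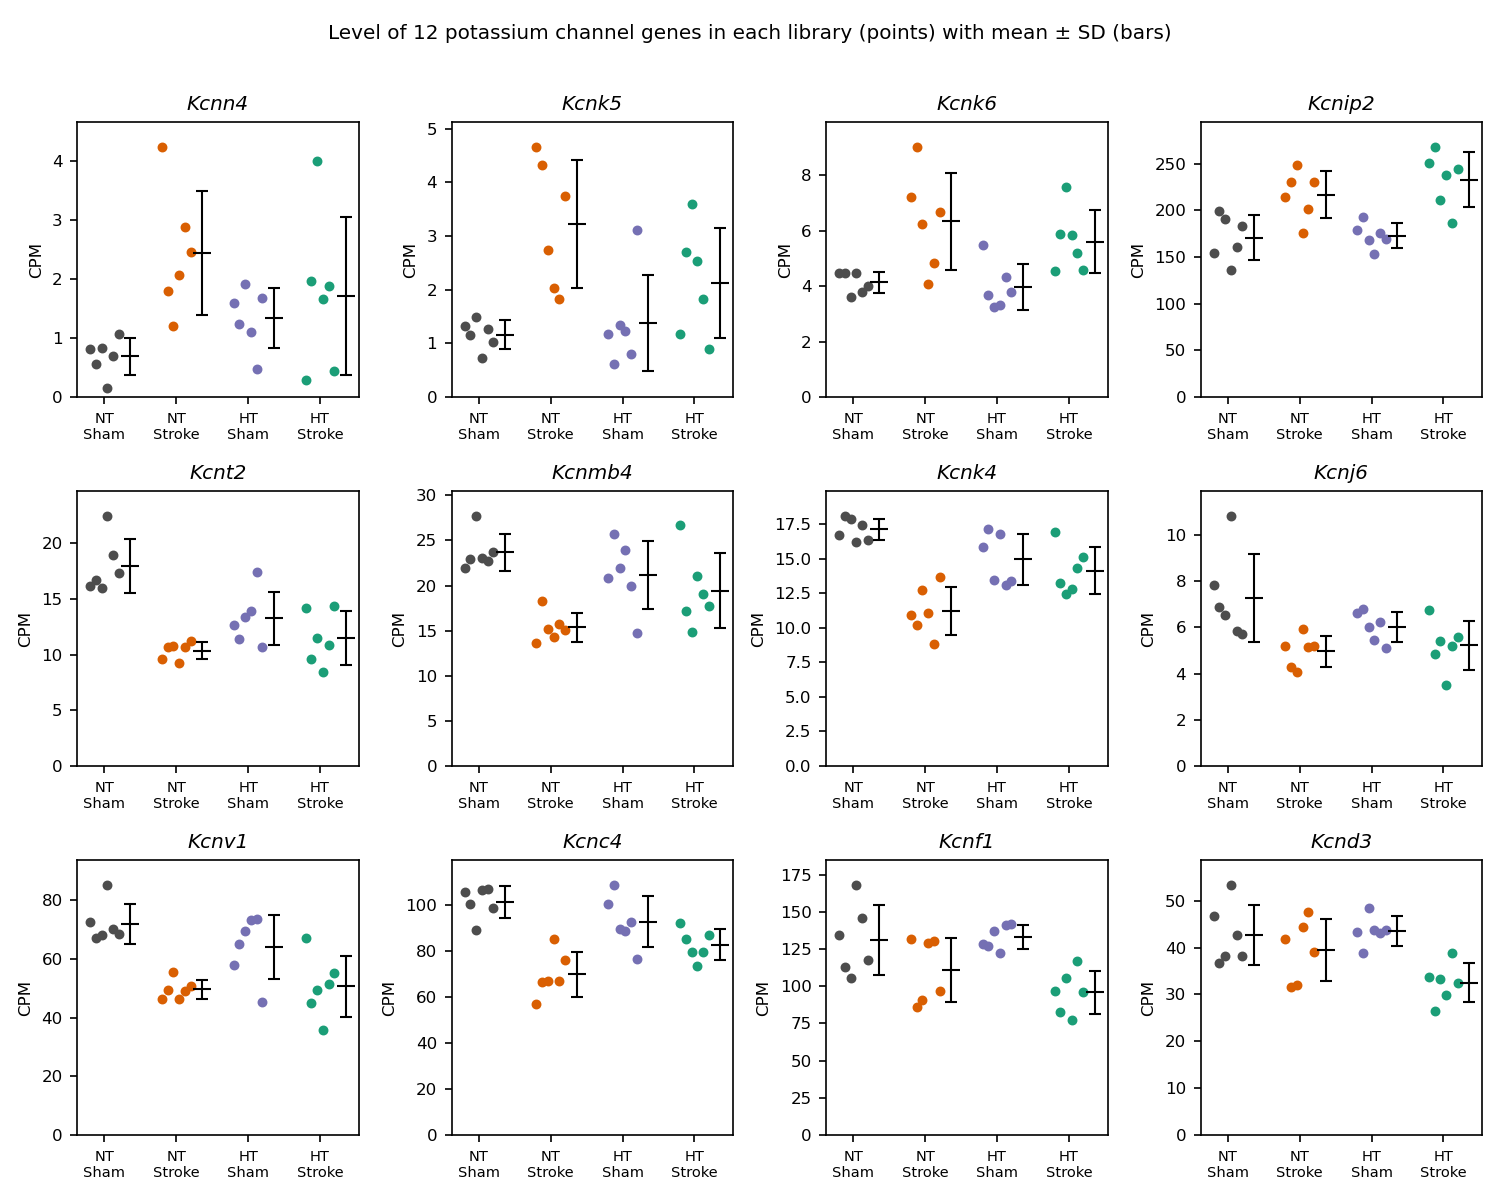
CPM of 12 members in each library (points) with the mean ± SD of each group (bars), on axes that start at 0. *Kcnn4*, *Kcnk5*, *Kcnt2*, *Kcnmb4*, *Kcnk4*, *Kcnv1* and *Kcnc4* do not overlap between NT + Sham and NT + Stroke, and *Kcnf1* does not overlap between HT + Sham and HT + Stroke.

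K2P channels carry the background leak that holds the resting potential. Their 11 tested members went both ways, with 3 higher, 2 lower and a median change of 0.015. Over all genes 14.4% were higher and 11.5% lower. *Kcnk5* (ENSMUSG00000023243, chromosome 14, 20140057 to 20181809), the alkaline-activated TASK-2, was 0.736, 1.21 and 1.49 CPM in NT + Sham and 1.83, 3.24 and 4.66 CPM in NT + Stroke. The groups did not overlap (1.48, SE 0.249, adjusted *P* = 0.000235). *Kcnk6*, the TWIK-2 channel known from macrophages and vessels, was 3.63, 4.24 and 4.49 CPM in NT + Sham and 4.09, 6.46 and 9.03 CPM in NT + Stroke, with 5 of 6 NT + Stroke libraries above the NT + Sham median (0.63, SE 0.164, adjusted *P* = 0.00821). *Kcnk15* passed as well, at 1.13, 1.68 and 2.68 CPM in NT + Sham and 1.43, 3.18 and 6.12 CPM in NT + Stroke (1.06, SE 0.343, adjusted *P* = 0.0321), but its call was lost in 12 of the alternatives run, among them without any 1 of NT + Sham 1, 2, 3 or 5 or of NT + Stroke 1, 4 or 5.

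The 2 lower K2P members are neuronal leak channels. *Kcnk4*, the mechanically gated TRAAK, was 16.2, 17.1 and 18.1 CPM in NT + Sham and 8.82, 11 and 13.7 CPM in NT + Stroke, without overlap (−0.58, SE 0.095, adjusted *P* = 0.000167). Exons of *Catsperz* overlap it on the same strand at a mean of 7.63 CPM, so some of these reads may belong to either gene. *Kcnk9*, the acid-sensitive TASK-3, was 52.0, 63.4 and 76.2 CPM in NT + Sham and 46.1, 49.2 and 51.9 CPM in NT + Stroke, just without overlap (−0.38, SE 0.0806, adjusted *P* = 0.00176). *Kcnk1*, the K2P member with the highest level, did not pass (−0.08, SE 0.0573).

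Kir channels pass K+ best near the resting potential, and the G protein-gated ones among them carry slow inhibition through GABA-B and other receptors. Of 10 Kir members tested, 4 were lower and 0 were higher, where 11.5% and 14.4% of all genes were. *Kcnj6* (GIRK2) was 5.73, 6.72 and 10.8 CPM in NT + Sham and 4.06, 5.17 and 5.92 CPM in NT + Stroke (−0.53, SE 0.158, adjusted *P* = 0.0189), and its call was lost without NT + Sham 4, the highest library. *Kcnj9* (GIRK3) was 168, 186 and 200 CPM in NT + Sham and 128, 148 and 162 CPM in NT + Stroke, with no overlap (−0.31, SE 0.0665, adjusted *P* = 0.00213). *Kcnj3* (GIRK1), the common partner of both, was 106, 114 and 121 CPM in NT + Sham and 81.0, 92.4 and 104 CPM in NT + Stroke, also apart (−0.27, SE 0.0715, adjusted *P* = 0.00980). Of the 4 GIRK genes 3 were thus lower, and the fourth, *Kcnj5*, had 0 to 10 counts in 23 of 24 libraries and was not tested.

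*Kcnj11*, the pore of the ATP-sensitive channel that opens when a cell's energy falls, was 69.6, 84.6 and 96.8 CPM in NT + Sham and 53.8, 67.5 and 74.8 CPM in NT + Stroke (−0.32, SE 0.0797, adjusted *P* = 0.00657). *Kcnj4* had medians of 288 and 271 CPM and did not pass (−0.03, SE 0.0614). *Kcnj15*, singled out here after its values were seen, had 1 to 7 counts per library in NT + Sham and 7 to 48 counts in NT + Stroke. It was left out by the filter on low counts in this comparison, where 5 of the 12 libraries had 10 or more counts. Fitted without that filter, *Kcnj15* changed by 3.10 (SE 0.480, adjusted *P* = 3.58e-05). In that fit *Kcnj1*, the renal channel ROMK, also passed in the other direction (edgeR adjusted *P* = 0.0414), from 7 and 5 counts in 2 NT + Sham libraries and 0 in the other libraries of both groups.

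Kv1 channels sit on axons and presynaptic endings, where they limit firing, and the beta subunits ride on their inner face. Of 9 tested 3 were lower and 1 was higher, where 11.5% and 14.4% of all genes were. *Kcna2* was 160, 189 and 205 CPM in NT + Sham and 136, 152 and 159 CPM in NT + Stroke, without overlap (−0.30, SE 0.0649, adjusted *P* = 0.00190). *Kcna6* was likewise apart (−0.30, SE 0.0705, adjusted *P* = 0.00406), and *Kcnab2* fell from a median of 748 to 616 CPM with overlap of the groups (−0.21, SE 0.0649, adjusted *P* = 0.0220). *Kcnab3*, the beta 3 subunit, was 59.8, 75.2 and 81.7 CPM in NT + Sham and 75.8, 93.9 and 115 CPM in NT + Stroke (0.36, SE 0.103, adjusted *P* = 0.0170). All 6 NT + Stroke libraries lay above the NT + Sham median of *Kcnab3*.

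Kv2 channels and the silent subunits (Kv5, Kv6, Kv8 and Kv9), which form no channel alone and change Kv2 channels when they join them, gave the most one-sided family, with 6 of 10 lower and 0 higher. Over all genes 11.5% were lower and 14.4% higher. *Kcnv1* (ENSMUSG00000022342, chromosome 15, 45106284 to 45114920), the silent Kv8.1, was 67.1, 69.4 and 85.2 CPM in NT + Sham and 46.4, 49.2 and 55.6 CPM in NT + Stroke. Its groups were well apart (−0.52, SE 0.0699, adjusted *P* = 2.67e-05). *Kcng1*, a silent Kv6 subunit, was 47.3, 51.4 and 61.5 CPM in NT + Sham and 34.6, 38.7 and 44.6 CPM in NT + Stroke (−0.40, SE 0.0809, adjusted *P* = 0.00111). *Kcng2*, *Kcns2* and *Kcns3* were lower with overlap between the groups (−0.40, −0.24 and −0.44), and the call of *Kcns3* was lost in 15 of the alternatives run, 9 of which left out 1 library. *Kcnb2*, a Kv2 pore that these subunits join, did not pass (−0.02, SE 0.189).

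Kv3 channels close fast and allow high firing rates, above all in parvalbumin interneurons. Of the 4, *Kcnc4* (89.4, 103 and 107 CPM in NT + Sham and 56.9, 67.0 and 85.3 CPM in NT + Stroke) was lower without overlap (−0.52, SE 0.0843, adjusted *P* = 0.000186). *Kcnc2* was lower at 57.4, 64.2 and 78.4 CPM in NT + Sham and 40, 48.6 and 57.9 CPM in NT + Stroke (−0.43, SE 0.0922, adjusted *P* = 0.00221). *Kcnc1* did not pass, with a change of 0.01 (SE 0.0804).

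Kv4 channels carry the dendritic A-type current together with their KChIP partners. None of the 3 Kv4 pores passed, and the KChIP genes split. *Kcnip4* was 48.1, 53.8 and 61.1 CPM in NT + Sham and 35.3, 40.1 and 44.2 CPM in NT + Stroke, without overlap (−0.42, SE 0.0673, adjusted *P* = 0.000135). *Kcnip3* was lower too, in groups that met at 192 CPM without overlap (−0.26, SE 0.0642, adjusted *P* = 0.00617). *Kcnip2* went the other way, at 136, 172 and 199 CPM in NT + Sham and 176, 222 and 248 CPM in NT + Stroke, with 6 of 6 libraries above the NT + Sham median (0.37, SE 0.0903, adjusted *P* = 0.00575).

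Kv7 channels carry the M-current that muscarinic receptors shut off. Of 6 Kv7 and KCNE genes tested, 3 were lower and 1 was higher, where 11.5% and 14.4% of all genes were. *Kcnq5* was 65.3, 68.9 and 71.7 CPM in NT + Sham and 48.0, 51.9 and 61.8 CPM in NT + Stroke (−0.36, SE 0.0636, adjusted *P* = 0.000332). *Kcnq3* was also lower (−0.32, SE 0.0696, adjusted *P* = 0.00210), and neither gene overlapped between groups. *Kcne4*, a single-pass subunit that inhibits several Kv channels, was 0.772, 1.12 and 1.55 CPM in NT + Sham and 1.47, 1.83 and 2.18 CPM in NT + Stroke (0.77, SE 0.206, adjusted *P* = 0.0102).

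In the EAG family, which includes the ERG and ELK channels, 3 of 7 were lower and 0 were higher. Shares over all genes were 11.5% lower and 14.4% higher. *Kcnh7* (ERG3) was 36.8, 44.9 and 64.4 CPM in NT + Sham and 25.5, 31.9 and 40.2 CPM in NT + Stroke, with overlap (−0.51, SE 0.140, adjusted *P* = 0.0145). *Kcnh1* (EAG1) was lower without overlap (−0.27, SE 0.0788, adjusted *P* = 0.0149) and *Kcnh3*, the EAG gene with the highest level, was lower by little (−0.18, SE 0.0629, adjusted *P* = 0.0473). *Kcnh2* did not pass (0.19, SE 0.0818).

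Of 31 genes whose proteins anchor, accompany or regulate these channels, 29 were tested. In NT + Stroke vs NT + Sham 9 of them were lower and 0 higher, where 11.5% and 14.4% of all 16835 genes were. *Lgi1*, a secreted protein tied to Kv1 channels at synapses, changed by −0.39 (SE 0.0560, adjusted *P* = 4.86e-05), and its receptors *Adam22* and *Adam23* by −0.27 and −0.22. Lower genes also included *Crbn*, *Dpp10*, *Cntnap1*, *Dlg1* and *Vapa*, between −0.28 and −0.15. *Dpp6*, the other Kv4 partner of its kind, and *Amigo1*, which travels with Kv2 channels, did not pass (−0.03, SE 0.0575, and −0.0040, SE 0.108).

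HT + Stroke vs HT + Sham asks the same of stroke under angiotensin II. Of 74 members tested, 1 was higher (1.35%, where 0.544% of all 16741 genes were higher) and 2 were lower (2.70%, where 0.102% were lower), and the median change was −0.07 over the members and 0.00069 over all genes. *Kcnip2* was 153, 172 and 193 CPM in HT + Sham and 186, 241 and 268 CPM in HT + Stroke, so 1 HT + Stroke library lay within the HT + Sham range (0.45, SE 0.0893, adjusted *P* = 0.0334). *Kcnf1*, the silent Kv5.1, was 123, 133 and 142 CPM in HT + Sham and 77.5, 96.3 and 117 CPM in HT + Stroke, and the groups did not overlap, as for 0.561% of all genes (−0.45, SE 0.0917, adjusted *P* = 0.0341). *Kcnd3*, the Kv4.3 pore, was 38.8, 43.5 and 48.5 CPM in HT + Sham and 26.4, 32.9 and 38.9 CPM in HT + Stroke, an overlap of 1 library (−0.40, SE 0.0857, adjusted *P* = 0.0442).

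These 3 calls lay close to the threshold and depended on single libraries, while the changes kept their direction. With 1 library left out, *Kcnip2* changed by 0.40 to 0.50, *Kcnf1* by −0.52 to −0.42 and *Kcnd3* by −0.47 to −0.36. No member was called in either direction without any 1 of HT + Sham 1, 3 or 4 or of HT + Stroke 2 or 4. Leaving out HT + Sham 6 alone left 1 higher and 0 lower, and leaving it out together with HT + Stroke 3 left 0 and 0. That pair was chosen after the data were seen. HT + Stroke 3 had the highest astrocyte and meningeal fibroblast scores of its group (7.07 and 6.15). There were 1 higher and 0 lower without HT + Sham 5, 1 and 1 without HT + Sham 2 or HT + Stroke 3, 2 and 2 without HT + Stroke 1 or 5, and 1 and 2 without HT + Stroke 6. The striatal score differed between the groups (5.73 ± 0.822 in HT + Sham and 7.17 ± 0.62 in HT + Stroke, exact two-sided permutation *P* = 0.00649, adjusted over 75 tests 0.0324). The olfactory bulb score went the other way without passing (4.17 ± 0.641 in HT + Sham and 3.15 ± 1.05 in HT + Stroke, exact two-sided permutation *P* = 0.0801, adjusted 0.188). Of oligodendrocyte genes 5 of 6 were higher (score difference 0.47, adjusted permutation *P* = 0.0162), and the microglial and choroid plexus scores were higher by 0.95 and 0.37 (adjusted permutation *P* = 0.0476 and 0.0324) with 0 genes called. The part of these markers in the 3 calls was not tested. With the regional scores as covariates 0 members and 0 genes were called. At an unadjusted *P* under 0.05, 10 members were higher and 12 lower, where 10.5% and 6.5% of all genes were.

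Of the members that were higher after stroke in NT mice, *Kcnn4* and *Kcnk5* had wide ranges in HT + Stroke. *Kcnn4* was 0.482, 1.42 and 1.91 CPM in HT + Sham and 0.291, 1.77 and 4.0 CPM in HT + Stroke, where libraries 1 and 6 had 0.291 and 0.445 CPM (0.39, SE 0.494, adjusted *P* = 0.744). *Kcnk5* was 0.622, 1.21 and 3.11 CPM in HT + Sham, with library 6 at the top, and 0.890, 2.18 and 3.60 CPM in HT + Stroke, with libraries 6 and 1 at the bottom (0.63, SE 0.394, adjusted *P* = 0.439). The 2 HT + Stroke libraries that were lowest for these genes are those with the lowest microglial, astrocyte (6.17 and 6.07, the others 6.56 to 7.07) and meningeal fibroblast scores (3.79 and 3.71, the others 4.75 to 6.15), and with the highest pan-neuronal scores (9.48 and 9.37, the others 9.11 to 9.30). This match was seen after the values were known, and the part of these scores in the channel values was not tested. The change of *Kcnn4* was 0.48 without HT + Sham 6, 0.60 without HT + Stroke 1 and 0.58 without HT + Stroke 6, and that of *Kcnk5* was 1.07, 0.75 and 0.77, none of which passed. *Kcnk6* was 3.24, 3.74 and 5.49 CPM in HT + Sham and 4.54, 5.52 and 7.60 CPM in HT + Stroke, higher in 6 of 6 than the HT + Sham median but not past the threshold (0.52, SE 0.170, adjusted *P* = 0.135). *Kcnj15* had 0 to 21 counts in HT + Sham, the 21 in library 6, and 1 to 143 in HT + Stroke, the 143 in library 3, and was not tested. *Kcnt2*, the lowest in NT mice, was 10.7, 13.0 and 17.4 CPM in HT + Sham and 8.40, 11.2 and 14.4 CPM in HT + Stroke (−0.19, SE 0.139, adjusted *P* = 0.527).

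The stroke comparisons in NT and in HT mice share no library and can be set side by side. Of 74 members tested in both, 50 had the same sign, and Pearson's r over the members was 0.376, as a description only, since all points come from the same libraries. The 30 members lower in NT mice had a median of −0.37 there and of −0.11 in HT mice, where 23 of them were negative. The HT median was −0.15 without HT + Sham 6, −0.16 without HT + Stroke 1 and −0.13 without HT + Stroke 6. Because these members were chosen for passing in NT mice, their NT values lean away from 0, and a smaller median in HT mice is no result. The 7 higher members had medians of 0.77 and 0.39, and 4 were positive in HT mice. The median SE was 0.0927 in NT and 0.116 in HT mice.

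**Figure D4:**
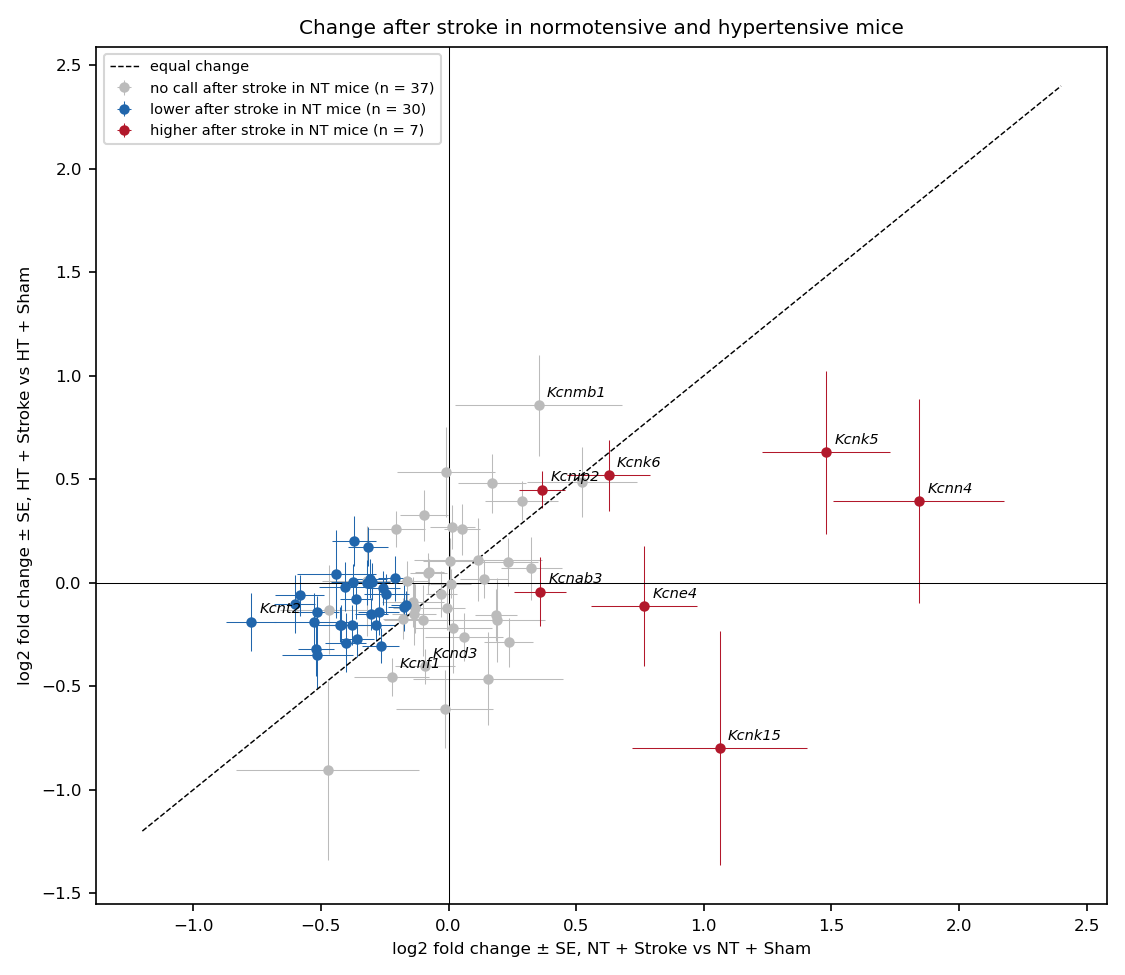
Log2 fold change ± SE after stroke in NT mice (horizontal axis) and in HT mice (vertical axis) for 74 members tested in both, with a dashed line where both would be equal and with colours chosen by the NT values, which by itself places coloured points away from 0 on the horizontal axis. The 30 blue points lower in NT mice lie mostly above the dashed line and close to 0 on the vertical axis, and *Kcnip2* and *Kcnk6* lie near the line.

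The difference of these effects was tested as an interaction term in a fit of all 24 libraries. Of 77 members tested, 0 were called in either direction, as were 0.0% of all 17608 genes, and DESeq2 also called 0 members (4 genes higher and 18 lower in all). An unadjusted *P* under 0.05 was reached by 15 members with a positive and 8 with a negative interaction, where 4.54% and 5.88% of all genes reached it. Among the members reported here, the smallest *P* belonged to *Kcnk4* (0.52, SE 0.136) and *Kcnj11* (0.48, SE 0.129), each with an adjusted *P* of 0.318 in edgeR. Both were lower after stroke in NT mice, and their HT values were −0.06 (SE 0.1) and 0.17 (SE 0.0944). That the stroke response of any member differs between NT and HT mice is therefore not shown at this threshold.

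HT + Sham vs NT + Sham compares angiotensin II with vehicle in mice without stroke. Olfactory bulb, excitatory cortical and meningeal fibroblast scores differed by 0.905, −0.164 and 0.468. None passed after adjustment (exact two-sided permutation *P* = 0.0216, 0.0216 and 0.0346, adjusted over 75 tests 0.0853, 0.0853 and 0.106). Their part in the channel results was not tested. Of 74 members 0 were called, as were 0.0% of all 16581 genes in edgeR and 0 genes in DESeq2, and at an unadjusted *P* under 0.05 there were 6 higher and 10 lower members, where 4.96% and 3.08% of all genes were. *Kcnt2* had the smallest *P*, at 10.7, 13.0 and 17.4 CPM in HT + Sham against 16, 17 and 22.4 CPM in NT + Sham (−0.43, SE 0.115, edgeR adjusted *P* = 0.406). *Kcnip1*, a Kv4 partner of interneurons among other cells, was 30.0, 37.4 and 46.5 CPM against 26.6, 29.2 and 33.0 CPM (0.32, SE 0.1, edgeR adjusted *P* = 0.426). *Kcnh2*, the ERG1 channel, was 65.9, 96.4 and 125 CPM against 65.6, 77.1 and 83.3 CPM (0.36, SE 0.116, edgeR adjusted *P* = 0.435). With the regional scores as covariates the values of *Kcnip1* and *Kcnh2* turned to −0.062 and −0.028. Library 6 of HT + Sham was the highest for both, and without it they were 0.24 (SE 0.0889) and 0.27 (SE 0.101).

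HT + Stroke vs NT + Stroke asks whether angiotensin II changed the tissue after stroke. Again 0 of 75 members were called, as were 0.0% of all 17008 genes, and DESeq2 called 0 genes. At an unadjusted *P* under 0.05, 12 members were higher and 1 was lower, where 3.35% and 3.89% of all genes were. Among the members reported here, *Kcnj9* had the smallest *P*, at 150, 178 and 193 CPM in HT + Stroke and 128, 148 and 162 CPM in NT + Stroke (0.24, SE 0.0752, edgeR adjusted *P* = 0.654). *Kcnj11* came next (0.29, SE 0.0974), and the single lower member was *Kcnd3* (−0.29, SE 0.112). Olfactory bulb and striatal scores differed by −0.999 and 0.400 (exact two-sided permutation *P* = 0.0909 and 0.435), and their part was not tested. The NT + Stroke libraries used here also enter the stroke comparison in NT mice.

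HT + Stroke vs NT + Sham sets both insults against neither and uses the NT + Sham libraries once more. Of 74 members, 5 were higher (6.76%, where 8.38% of all 16749 genes were) and 15 were lower (20.3%, where 6.37% of all genes were). The higher members were *Kcnip2* (0.48, SE 0.1, adjusted *P* = 0.0113), *Kcnmb1*, the BK beta subunit of smooth muscle (0.86, SE 0.253, adjusted *P* = 0.0335), the silent subunit *Kcng4* (0.45, SE 0.122, adjusted *P* = 0.0236), *Kcnk6* (0.47, SE 0.145, adjusted *P* = 0.0415) and *Kcnt1* (0.24, SE 0.0766, adjusted *P* = 0.0449). Markers moved here too, with 5 of 8 pan-neuronal genes lower (score difference −0.22, adjusted permutation *P* = 0.0250), 3 of 6 excitatory cortical genes lower (−0.41, 0.0250), and 7 of 8 microglial (1.09), 5 of 6 oligodendrocyte (0.39) and 5 of 6 meningeal fibroblast genes higher (1.48, each adjusted permutation *P* = 0.0162). Their part in the channel results was not tested. *Kcnmb1* was low in both groups, at 0.613, 0.721 and 1.21 CPM in NT + Sham and 0.815, 1.57 and 1.85 CPM in HT + Stroke. The 15 lower members were led by *Kcnt2* (−0.62, SE 0.129, adjusted *P* = 0.0113), *Kcnh7* (−0.52, SE 0.163, adjusted *P* = 0.0477), *Kcnv1* (−0.48, SE 0.111, adjusted *P* = 0.0141) and *Kcnf1* (−0.42, SE 0.121, adjusted *P* = 0.0307).

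The other 11 lower members in HT + Stroke vs NT + Sham lay between −0.40 and −0.25 and included *Kcnip4*, *Kcnc2*, *Kcnd3*, *Kcnma1*, *Kcnj3*, *Kcnk9*, *Kcna2* and *Kcnn2*. Groups did not overlap for 5 members on the low side (3.91% of all genes), namely *Kcnt2*, *Kcnj3*, *Kcnc2*, *Kcnq5* and *Kcnmb2*, the last without a call, and for 1 on the high side, *Kcnk6* (2.26% of all genes). At an unadjusted *P* under 0.05, 11 members were higher and 25 lower, where 15.7% and 13.9% of all genes were. The counts moved with single libraries, to 1 higher without NT + Sham 1 or without HT + Stroke 4, to 2 without NT + Sham 4 or HT + Stroke 2, and to 3 without NT + Sham 3, 5 or 6. There were 8 lower members without NT + Sham 4, HT + Stroke 2 or HT + Stroke 4, and 9 without NT + Sham 1 or 5. Without HT + Stroke 1 there were 6 higher and 18 lower members, and without HT + Stroke 6 there were 6 and 13. Of the alternatives run, 17 lost the call of *Kcnk6*, 16 that of *Kcnk9*, 15 that of *Kcnh7* and 13 those of *Kcnt1* and *Kcnn2*. The calls of *Kcnmb1*, *Kcnf1* and *Kcnd3* were lost in 10, *Kcng4* in 5, and *Kcnv1*, *Kcna2* and *Kcnc2* in 2. *Kcnip2*, *Kcnt2*, *Kcnip4*, *Kcnj3* and *Kcnma1* lost theirs only with the regional scores as covariates. With the regional scores as covariates 0 members and 0 genes were called, although all 20 called members kept their sign. The median of the 5 higher members was 0.47 in both fits (median SE 0.122 and 0.144), and that of the 15 lower went from −0.36 to −0.18 (median SE 0.0879 and 0.102). Of the 29 partner genes tested, 1 was higher and 4 were lower, where 8.38% and 6.37% of all 16749 genes were. The higher gene was *Cntn2* (0.25, SE 0.0689, adjusted *P* = 0.0274), and *Dpp10*, *Adam22* and *Vapa* were among the lower.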

How the data were processed

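Libraries were grouped by their GEO labels, 6 to a group, and were taken as separate mice since the columns of a group carry the numbers 1 to 6. Nothing else ties a library to an animal, so *P* values measure the spread between these libraries. Reads were mapped by the authors to an Ensembl mouse genome. Their 4 deposited tables, each for a pair of groups, hold counts per gene that were not normalized and FPKM (counts per gene length and library size). The submitters' processing notes name featureCounts 1.5.0-p3 and DESeq2 1.20.0. The aligner, genome build and strand setting are not given in the sources used here. Their own log2 fold changes, *P* values and 56 columns of normalized counts and group means were not used. Counts and FPKM deposited for 1 library in several tables did not differ in any of 48 comparisons. Positions are those of the files, and 86 of 90 members had the same position in GENCODE release M21 on GRCm38. Promoter windows are RefSeq's (GRCm38.p6), and their starts can differ from those of the files, as for *Kcnt2*, *Kcnk5* and *Kcnmb4*.

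Counts were joined by gene ID and tested in R 4.3.3 with edgeR 4.0.16 (filterByExpr with a minimum count of 10 and a minimum total of 15, TMM scaling, robust two-sided quasi-likelihood test) using only the libraries of both groups of a comparison, or all 24 for the interaction. Benjamini-Hochberg adjustment ran over every gene in the fit, and 0.05 was the threshold. The test was tried on simulated data first. CPM uses TMM-scaled library sizes. Marker scores are means of log2(CPM + 1) over list genes whose mean was 0.5 CPM or more, compared by exact permutation and adjusted over 75 tests. No sequencing batch was labelled.

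Named members are, per comparison, the 12 largest and 12 smallest changes among called members with a mean of at least 1 CPM in a group, or the 3 smallest *P* where fewer than 3 passed, the 8 highest FPKM, the smallest *P* of each family after stroke in NT mice, and partner genes called after stroke. Results of some members and of 1 partner gene are not reported here, although counts over lists include them. Further members are named to complete a family, after their values were seen. Members, families, partner and marker lists and tests were chosen with earlier results of these data known, and the choroid plexus and meningeal lists after values were seen. The alternatives were an unadjusted *P*, DESeq2 1.42.0, upper-quartile or no scaling beyond library size, no filter, a minimum of 10 counts in each library, log2(FPKM + 1) and log2(FPKM + 0.1) tested with limma 3.58.1, all 4 groups in one fit, regional scores as covariates, a block on library number, each library left out, and HT + Sham 6 with HT + Stroke 3 left out (added after seeing the data).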

Additional observations from a re-analysis of the deposited data

Results flagged for a closer look

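In each group of 6 libraries, the highest and the lowest value of the 41 named members was compared with the rest by Dixon's gap over range at the 95% level. Of 164 groups examined, 4 held a library that stood apart, and chance gives about 1 in 20. *Kcnk5* was 3.11 CPM in library 6 of HT + Sham, where the other 5 had 0.622 to 1.33 CPM, and this library also had the highest microglial and meningeal scores of its group. *Kcnv1* was 85.2 CPM in library 4 of NT + Sham (67.1 to 72.5 CPM in the others). Library 3 of NT + Sham was apart for *Kcnmb4*, at 27.7 CPM (21.9 to 23.8 CPM in the others), and for *Kcnab3*, at 59.8 CPM (73.8 to 81.7 CPM in the others). *Kcnv1* and *Kcnmb4* remained lower, and *Kcnab3* higher, in NT + Stroke vs NT + Sham without any 1 library.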

How the results depend on the processing

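Of 1160 values of 51 named results under the alternatives, 953 kept their direction and their side of the threshold, 205 kept only the direction and 2 reversed, *Kcnh2* (−0.028) and *Kcnip1* (−0.062) in HT + Sham vs NT + Sham with the regional scores as covariates. In NT + Stroke vs NT + Sham the count of 7 higher members was 11 at an unadjusted *P* and 0 with the covariates, and that of 30 lower members was 3 with the covariates; leaving out 1 library gave 6 to 9 higher and 25 to 29 lower, and library size alone 10 and 22 (over all genes 2987 and 1021, against 2426 and 1939). In HT + Stroke vs HT + Sham, 1 higher became 10 (unadjusted), 3 (DESeq2), 2 (all 4 groups in one fit), 0 (covariates), 0 (replicate block) or 0 (HT + Sham 6 and HT + Stroke 3 left out), and 2 lower became 12, 5, 4, 0, 1 and 0 in the same order, and 0 with library size only and with either limma fit; leaving out 1 library gave 0 to 2 and 0 to 2. In HT + Stroke vs NT + Sham, 5 higher became 11 (unadjusted), 8 (DESeq2), 2 (no filter), 0 (covariates) or 3 (replicate block), and 15 lower became 25 (unadjusted), 9 and 9 (limma), 0 (covariates) or 4 (replicate block); leaving out 1 library gave 1 to 6 and 8 to 18. The unadjusted counts were 6 and 10 in HT + Sham vs NT + Sham, 12 and 1 in HT + Stroke vs NT + Stroke, and 15 and 8 for the interaction, and the adjusted counts of these comparisons were 0 to 0 with 1 library left out. The causes were not tested. The library numbers do not pair the groups: deviations of same-numbered libraries correlated at −0.379 to 0.261, so the block only bears on a shared number. With a replicate block NT + Stroke vs NT + Sham had 9 higher and 29 lower members. Depth limits *Kcnn4*, *Kcnk5*, *Kcnk6*, *Kcnk15*, *Kcne4*, *Kcns3*, *Kcnmb1*, *Kcnmb2* and *Kcnj15*, which had under 100 counts in most libraries.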
